A study of Rattus norvegicus with 18 samples.

Results

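The lungs of rats treated with a multiwalled carbon nanotube (MWCNT) for 2 years were compared with the lungs of vehicle control rats of the same age. The samples were the 6 rats labelled Year 2, 3 MWCNT-treated and 3 control, of 18 rats in the whole series, and every gene in the deposited table was considered. The rats were male F344 rats, an inbred strain with no genetic modification. The treated rats received MWNT-7, a straight and rigid MWCNT, at 0.5 mg/kg body weight by instillation into the trachea every 4 weeks from 9 weeks of age, 26 times in all. The control rats received the vehicle on the same schedule, which was saline with 0.1% Tween 80, so both groups had repeated anesthesia, instillation, and detergent. RNA was taken from a small piece of the accessory lobe, tissue with nodules visible at necropsy was excluded, and the remainder of each lobe was examined under the microscope for tumors. The 3 rats of each group were drawn at random from those whose RNA passed the quality limit, and they were separate animals. The values are those of tumor-free pieces of a single lobe, and the part of smaller focal lesions in them was not tested.

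Long, rigid fibers that reach the alveoli are taken up by alveolar macrophages, which clear them slowly, and the fibers can persist in the lung for the lifetime of the animal. The gas-exchange surface is formed by thin alveolar type 1 cells and a dense capillary endothelium, whereas alveolar type 2 cells make surfactant and divide to replace type 1 cells after injury. Persistent injury of this surface is known to bring in monocytes and granulocytes, to raise the numbers of type 2 cells, and to be followed by scarring. In bulk tissue, fewer cells of a type and less RNA per cell cannot be told apart, so each value below is a level in the piece of lung and not in a cell.

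For each gene, the counts of the 6 rats were compared by the quasi-likelihood test of edgeR with TMM scaling. The FDR is the p-value after Benjamini-Hochberg adjustment over the 14361 genes with enough counts to be tested, of 22081 genes in the table. The words rose and fell are used for genes with an FDR below 0.05, and DEG for those that also had an absolute log2 fold change above 1. Levels are given as TPM (transcript levels scaled for gene length, with the same total in every library) in the order of replicates 1, 2, and 3. Fold changes come from the counts with TMM scaling and lie somewhat above the ratio of the TPM values, since the TPM of every gene is relative to the whole library and over all tested genes the median was -0.011 with TMM and -0.220 with limma on log2(TPM + 0.1). The genes named are those of a rule given with the methods and further members of each list chosen as examples after their values were seen.

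The libraries of the control rats held 13297643 to 14721398 counts each, and those of the MWCNT-treated rats held 14661589 to 16720170. The 50 most abundant genes took 14.6% to 15.5% of the counts in the control rats and 19.8% to 21.1% in the MWCNT-treated rats. The share of mitochondrial counts was 3.08% to 3.94% in the control rats and 3.79% to 4.11% in the MWCNT-treated rats. Log2 CPM values of pairs of rats correlated across genes at 0.973 to 0.983 within a group and at 0.900 to 0.930 between groups. Lung markers were abundant in every rat, as shown for *Sftpc*, *Scgb1a1*, and *Ager* below. Heart muscle markers varied among the control rats, with a sum over the list of 84.5, 309.6 and 911 TPM, against 86.4, 147 and 80.5 TPM in the MWCNT-treated rats. *Myh6*, a heavy chain of heart myosin, was at 0, 23.2 and 78.0 TPM in the control rats and 7.53, 12 and 5.81 TPM in the MWCNT-treated rats. Control replicate 3 had the most heart transcripts and control replicate 1 the fewest. Of 3 fat cell markers that passed the filter, none was a DEG and *Lipe* fell, at -0.90 (FDR 0.000469).

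Of the tested genes, 49.2% passed the FDR, 25.2% with higher and 24% with lower levels in the MWCNT-treated rats. DEGs made up 16.4% of the tested genes, 8.17% higher and 8.22% lower, and the rats of the groups did not overlap for 59.8% of the tested genes. These shares are the background for each count of listed genes below. With scaling by library size alone, the median log2 fold change shifted by -0.171, and the share of DEGs that were higher was 37.5% instead of 49.9%, with 948 higher and 1583 lower. A total of 394 DEGs rose more than 4-fold and 131 fell more than 4-fold, whereas 77 rose and 4 fell more than 16-fold. DEGs that rose held 9.82% of the TPM of the control rats and 24.8% of that of the MWCNT-treated rats, and DEGs that fell held 10.3% and 2.94%.

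**Figure D1:**
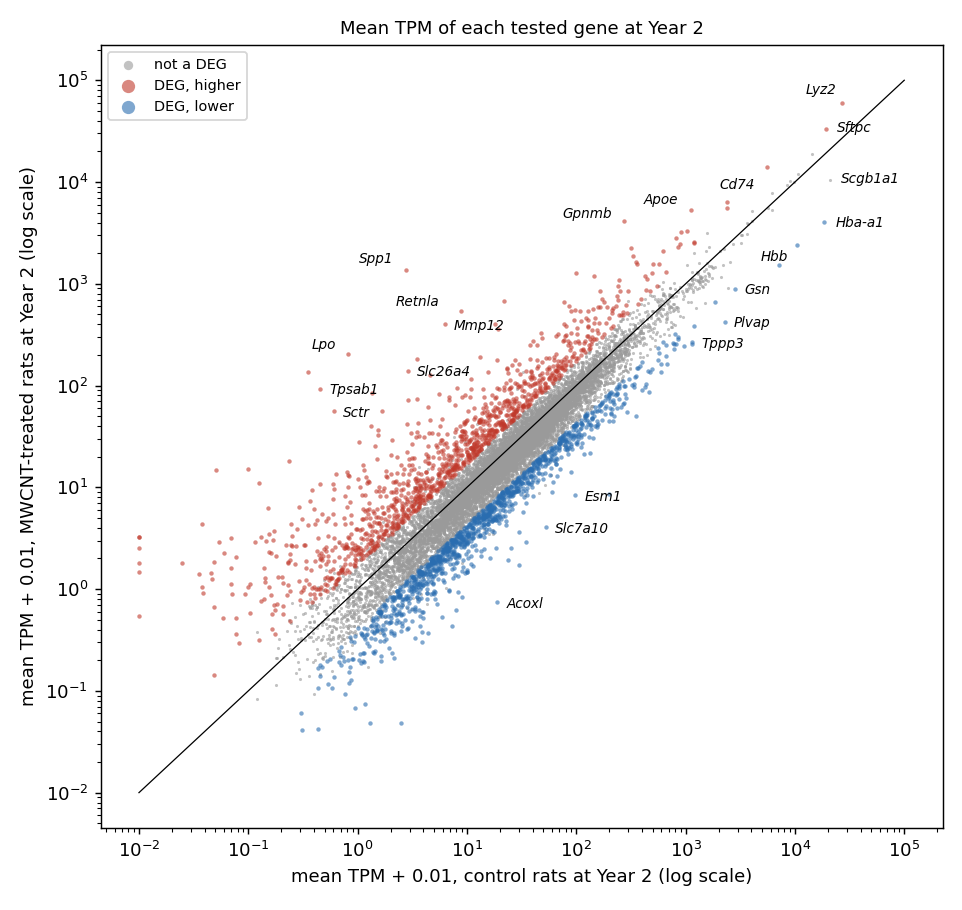
Mean TPM of each tested gene in the 3 control rats (x axis) and the 3 MWCNT-treated rats (y axis) at Year 2, both on log scales after adding 0.01, with DEGs that were higher in red and lower in blue. Genes on the black line have equal TPM, and the labelled genes far above it include *Spp1*, *Lpo*, and *Tpsab1*.

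The largest gains in TPM included products of macrophages and type 2 cells. *Lyz2*, the lysozyme of macrophages and type 2 cells, was at 25546, 24952 and 30008 TPM in the control rats and 57791, 57327 and 62347 TPM in the MWCNT-treated rats. All 3 MWCNT-treated rats were above all 3 control rats, and the gain in mean TPM was the largest among genes that passed the FDR (log2 fold change 1.36, SE 0.09, FDR 5.21e-06). Surfactant genes followed, with *Sftpc* at 20489.5, 17721 and 20041 TPM in the control rats and 33979.9, 32139 and 34569.7 TPM in the MWCNT-treated rats and *Sftpa1* at 5149.9, 5256 and 6368 TPM in the control rats and 14476, 13071 and 14685 TPM in the MWCNT-treated rats. *Apoe*, a lipid carrier secreted by macrophages, rose from 1322, 1129 and 879 TPM to 5801, 5626 and 4676 TPM (log2 fold change 2.48, SE 0.17, FDR 6.07e-06). The other genes with a large gain were *Cd74*, *Gpnmb*, *Ctsd*, *Npc2*, the mitochondrial gene *Mt-co1*, and LOC100360087, with log2 fold changes of 0.61 (FDR 0.003) for *Mt-co1* and 1.44 for LOC100360087.

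The largest losses included transcripts of red blood cells, club cells, and capillaries. *Hba-a1*, a hemoglobin alpha chain, was at 22493, 18782 and 14561 TPM in the control rats and 2463, 4378 and 5318 TPM in the MWCNT-treated rats. The groups did not overlap (log2 fold change -2.0, SE 0.26, FDR 0.000254), and *Hbb*, *Hba-a2*, and LOC100134871 had log2 fold changes of -1.90, -2.03, and -1.96. *Scgb1a1*, the secretoglobin of bronchiolar club cells, was at 27529.5, 18232 and 17673 TPM in the control rats and 10335, 10938 and 10255 TPM in the MWCNT-treated rats, a fall of less than 2-fold (log2 fold change -0.80, SE 0.18, FDR 0.00479). Also among the largest losses were *Gsn*, which severs actin filaments, at -1.44, *Tppp3*, a tubulin-binding protein, at -1.91, *Epas1*, the hypoxia-inducible factor of endothelium, at -1.28, and *Plvap* and *Ager*, which are described below. Hemoglobin copies are nearly identical, and how reads were divided among them is uncertain.

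**Figure D2:**
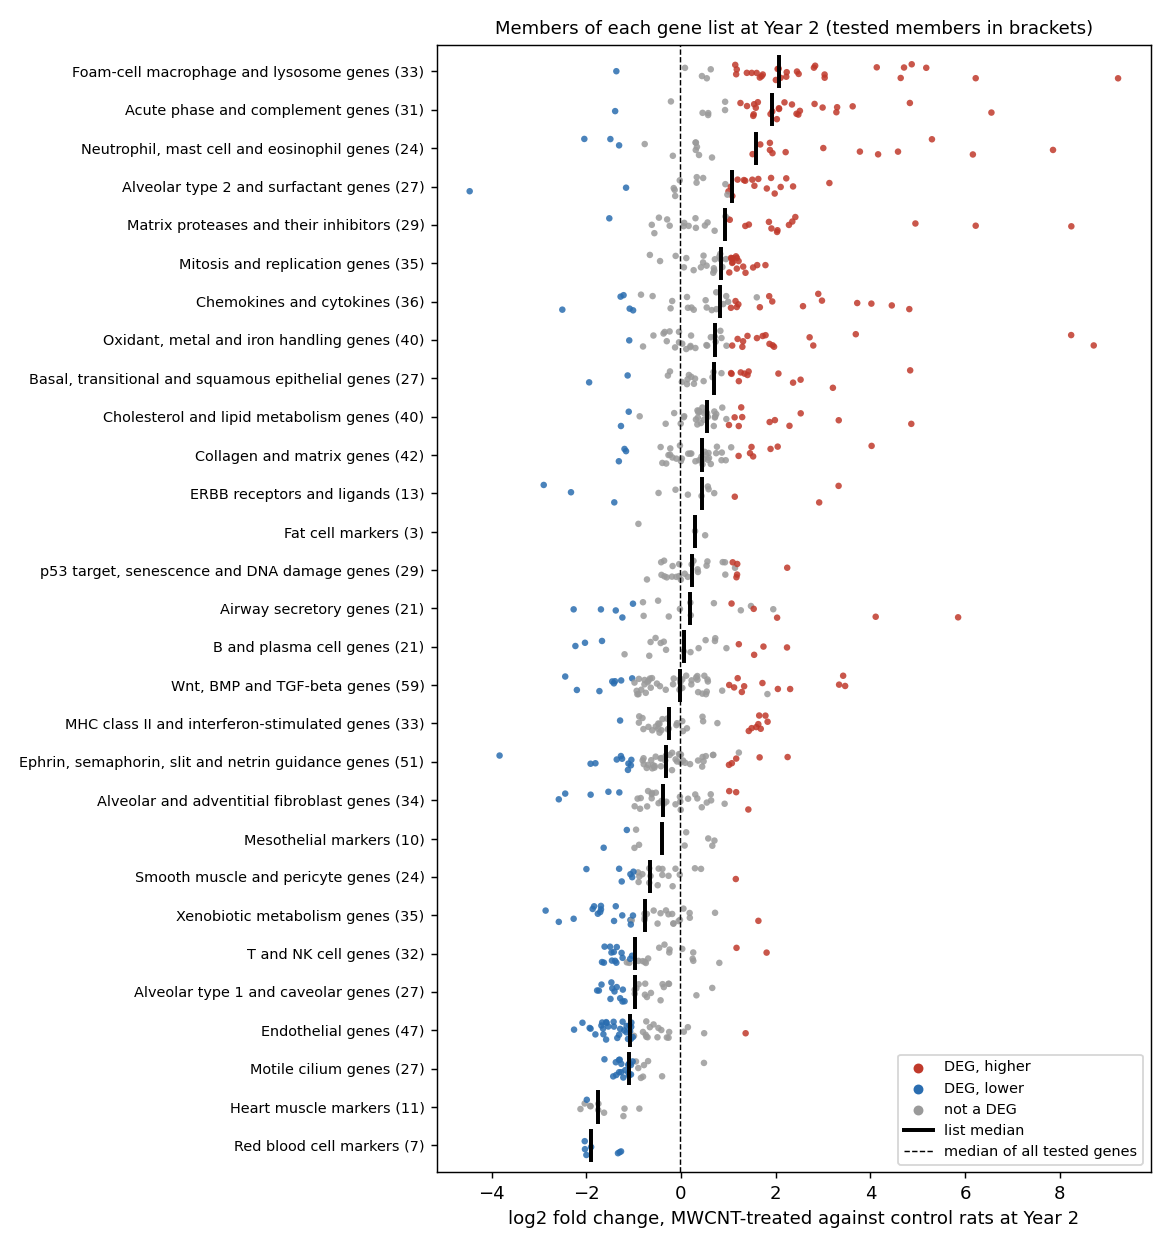
Log2 fold change of each tested member of the gene lists (x axis), 1 row per list, ordered by the median of the list (black bar), with DEGs in red where higher and in blue where lower. Macrophage and lysosome genes had the highest median, 2.06. Red blood cell and heart muscle markers had the lowest medians, -1.90 and -1.75, followed by motile cilium and endothelial genes at -1.10 and -1.08.

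Genes of lipid-laden macrophages and their lysosomes rose nearly throughout. Of the 33 tested members of this list, 31 rose and 1 fell, and 28 of those that rose were DEGs. The median log2 fold change was 2.06, against -0.011 for all tested genes. *Cd68*, a lysosomal membrane protein of macrophages, was at 75.3, 81.4 and 101 TPM in the control rats and 638, 591 and 583 TPM in the MWCNT-treated rats, and *Lgals3*, the galectin of macrophages, was at 309.9, 301 and 348 TPM in the control rats and 2354, 2386 and 2008 TPM in the MWCNT-treated rats. For both genes the lowest MWCNT-treated rat was more than 5 times the highest control rat, and the log2 fold changes were 3.03 (SE 0.11, FDR 2.63e-07) and 3.03 (SE 0.11, FDR 2.6e-07). *Fabp4*, a fatty acid binding protein of lipid-loaded macrophages, was at 16.9, 19.7 and 29 TPM in the control rats and 697, 698 and 639 TPM in the MWCNT-treated rats. Its rise was 36.2-fold (log2 fold change 5.18, SE 0.15, FDR 1.56e-07). *Gpnmb*, a glycoprotein of stressed lysosomes, rose from 249.8, 229 and 340.3 TPM to 4353, 4213 and 3782 TPM (log2 fold change 4.13, SE 0.16, FDR 3.05e-07). Genes best known from osteoclasts and giant cells rose as well. *Ctsk*, the collagen-cleaving cathepsin K, was at 15.9, 13.5 and 25.1 TPM in the control rats and 497, 379.7 and 342 TPM in the MWCNT-treated rats. *Atp6v0d2*, a subunit of the proton pump, had a log2 fold change of 4.87 (FDR 3.34e-07), and *Dcstamp* and *Ocstamp*, which take part in cell fusion, had values of 2.23 (FDR 0.00454) and 1.39 (FDR 0.000916). Scavenger receptors rose, *Marco* by 4.64 and *Msr1* by 2.45 on the log2 scale. The member that fell was *Chit1*, the chitinase of macrophages, at 27.4, 32.9 and 27.2 TPM in the control rats and 8.92, 10.1 and 10.2 TPM in the MWCNT-treated rats. All 3 MWCNT-treated rats were below all 3 control rats for *Chit1* (log2 fold change -1.36, SE 0.10, FDR 1.04e-05).

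Of 40 tested genes of cholesterol and lipid metabolism, 32 rose and 3 fell, but 11 and 2 were DEGs. Of 17 genes of cholesterol synthesis and its control, 15 rose, or 11 with library size scaling, and *Dhcr7* was the single DEG among them, at 1.29 (FDR 1.81e-05). *Pla2g7*, a phospholipase that degrades platelet-activating factor and oxidized lipids, was at 13.1, 15.6 and 18.4 TPM in the control rats and 143, 133 and 130.4 TPM in the MWCNT-treated rats (log2 fold change 3.33, SE 0.11, FDR 1.94e-07). *Pla2g4e*, a cytosolic phospholipase, rose from a few counts, 1, 4 and 1, to 44, 101 and 43 counts (log2 fold change 4.86, SE 0.56, FDR 0.000115). *Pld3*, a lysosomal exonuclease, *Soat1*, which esterifies cholesterol for storage, and *Npc2* and *Npc1*, which move cholesterol out of the lysosome, rose by 2.53, 1.98, 1.87, and 1.27. *Abca1*, the cholesterol exporter, rose from 24.6, 29.5 and 24.9 TPM to 47.2, 44.9 and 45 TPM (log2 fold change 1.01, SE 0.08, FDR 1.5e-05). The members that fell were *Alox15*, a lipoxygenase, *Cyp27a1*, a sterol hydroxylase, and *Ptgds*, a prostaglandin D synthase, at -1.27, -1.10, and -0.87, and *Ptgds* did not pass without control replicate 1, control replicate 3, or MWCNT replicate 1 (FDR 0.0558 to 0.062). With limma on log2(TPM + 1), the number of DEGs that rose was 7.

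Of 36 tested chemokines and cytokines, 19 rose, 6 fell, and 11 did not pass, with 14 DEGs higher and 5 lower and a median of 0.82. *Ccl2*, which recruits monocytes, was at 6.50, 6.53 and 7.36 TPM in the control rats and 80.4, 76.1 and 75.3 TPM in the MWCNT-treated rats, and *Ccl7*, *Ccl12*, and *Ccl9* rose by 4.02, 2.90, and 4.45. *Cxcl6*, which binds the neutrophil receptor CXCR2, was at 1.25, 0.573 and 2.70 TPM in the control rats and 35.5, 29.2 and 44.3 TPM in the MWCNT-treated rats. Its control values varied among the rats, and all were far below the MWCNT-treated rats (log2 fold change 4.82, SE 0.35, FDR 7.7e-06). *Il1rn*, the natural antagonist of the IL-1 receptor, was at 32.1, 35.4 and 44.6 TPM in the control rats and 259, 284 and 214 TPM in the MWCNT-treated rats (log2 fold change 2.98, SE 0.14, FDR 8.56e-07). *Il6* had too few counts to pass the filter, with 0, 7 and 5 counts in the control rats and 11, 21 and 10 counts in the MWCNT-treated rats. *Il4*, *Il10*, *Il13*, *Il17a*, *Tslp*, *Csf3*, and *Ifng* did not pass it either. The members that fell were *Ccl5*, *Ccl11*, *Ccl21*, *Cxcl9*, *Cxcl14*, and *Il33*. *Ccl11*, eotaxin, which attracts eosinophils, was at 4.30, 4.47 and 3.04 TPM in the control rats and 0.625, 0.659 and 0.474 TPM in the MWCNT-treated rats (log2 fold change -2.51, SE 0.39, FDR 0.000687). *Il33*, an alarmin stored in the nuclei of type 2 and endothelial cells, was at 324, 368 and 340.1 TPM in the control rats and 105, 135 and 127 TPM in the MWCNT-treated rats, with every MWCNT-treated rat below every control rat (log2 fold change -1.27, SE 0.09, FDR 7.05e-06). *Ccl5* had a log2 fold change of -1.21 (FDR 0.0461), which no longer passed with DESeq2 (FDR 0.0998) or without control replicate 1, control replicate 2, MWCNT replicate 1, or MWCNT replicate 2 (FDR 0.0789 to 0.151). Without control replicate 2, the number of DEGs in this list that fell, like that without MWCNT replicate 1, was 3 instead of 5.

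Acute phase proteins and complement components rose in nearly every member. Of 31 tested members, 24 were DEGs that rose and 1 fell, with a median of 1.93. *C3*, the central component of complement, was at 72.1, 65.8 and 95.5 TPM in the control rats and 749, 536 and 684 TPM in the MWCNT-treated rats (log2 fold change 3.30, SE 0.18, FDR 1.64e-06). *Lcn2*, which binds bacterial siderophores, was at 11.5, 13.2 and 8.23 TPM in the control rats and 85.6, 81.3 and 110.1 TPM in the MWCNT-treated rats (log2 fold change 3.28, SE 0.18, FDR 1.86e-06). *A2m*, the alpha-2-macroglobulin that traps proteases and is a major acute phase protein of the rat, had 12, 0 and 10 counts in the control rats and 778, 646 and 671 counts in the MWCNT-treated rats (log2 fold change 6.56, SE 0.40, FDR 2.91e-06). The components of C1q, *C1qa*, *C1qb*, and *C1qc*, which macrophages make, rose by 2.82, 2.44, and 2.07. *Cfi* and *Serping1*, which hold complement in check, rose by 3.63 and 2.34. Of the 21 complement components and receptors tested, 20 rose and none fell. *Orm1*, *Hp*, and *Hpx*, plasma proteins best known from the liver, rose by 4.83, 2.99, and 2.48. The member that fell was *Serpina1*, alpha-1 antitrypsin, at 19.7, 32.4 and 13.6 TPM in the control rats and 5.10, 4.47 and 12.1 TPM in the MWCNT-treated rats. MWCNT replicate 3 lay close to control replicate 3, and the fall of *Serpina1* (log2 fold change -1.39, SE 0.40, FDR 0.0179) no longer passed without control replicate 2 (FDR 0.0766), MWCNT replicate 1 (FDR 0.0599), or MWCNT replicate 2 (FDR 0.0602).

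**Figure D3:**
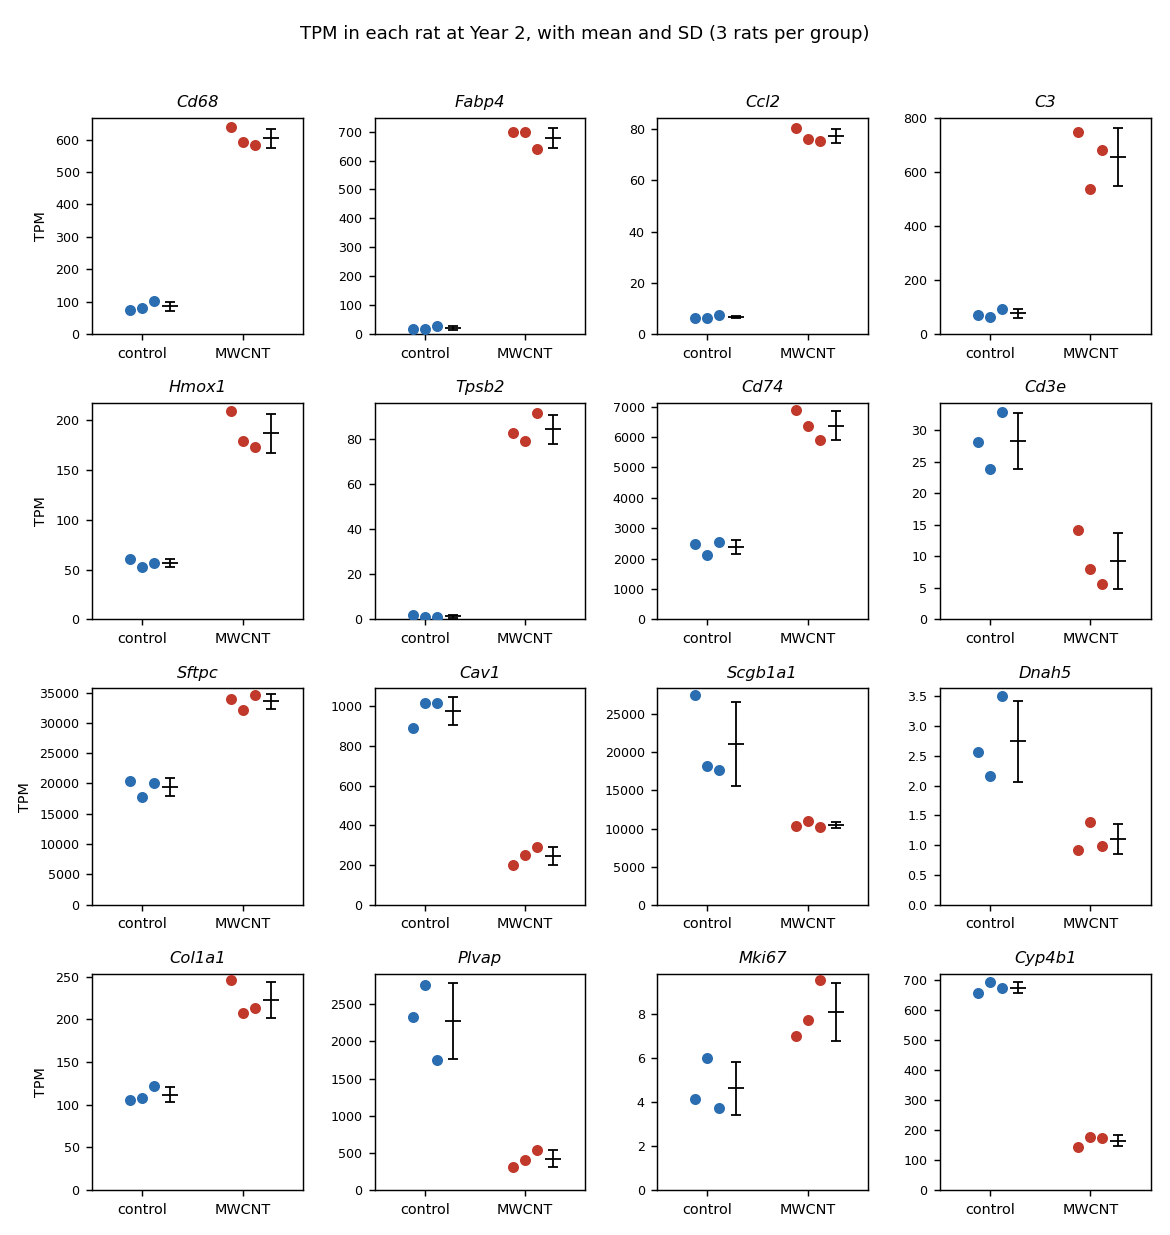
TPM (y axis, from 0) of 16 genes in each of the 3 control rats (blue) and the 3 MWCNT-treated rats (red) at Year 2, with the mean and SD beside the points in black. In each panel the groups do not overlap, from *Mki67*, whose highest control rat was at 6.00 TPM and lowest MWCNT-treated rat at 7.01 TPM, to *Fabp4* at 29 and 639 TPM.

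Genes of antigen presentation by MHC class II rose, whereas more interferon-induced genes fell than rose. All 8 MHC class II genes tested were DEGs that rose, including *Ciita*, their transcriptional coactivator, at 1.43 (FDR 1.96e-05). *Cd74*, the invariant chain, was at 2497, 2127 and 2539.7 TPM in the control rats and 6875, 6352 and 5907 TPM in the MWCNT-treated rats (log2 fold change 1.63, SE 0.11, FDR 5.58e-06), and the RT1-B, RT1-D, and RT1-DM chains rose by 1.49 to 1.83. Of 25 interferon-stimulated genes and interferon regulators, 2 rose, 13 fell, and 10 did not pass. *Isg15*, a ubiquitin-like modifier, was at 43.5, 58.6 and 37 TPM in the control rats and 25.2, 30.9 and 26.7 TPM in the MWCNT-treated rats, a fall in which the groups did not overlap (log2 fold change -0.53, SE 0.16, FDR 0.0214) and which did not pass without any of 4 of the 6 rats (FDR 0.0517 to 0.0821). *Gbp5*, a guanylate-binding protein, was at 48.3, 58.9 and 49.6 TPM in the control rats and 18.6, 15.9 and 20.9 TPM in the MWCNT-treated rats and was the single DEG among these (log2 fold change -1.29, SE 0.11, FDR 2.18e-05). The 2 that rose were *Usp18* at 0.77 and *Irf8* at 0.45, and *Irf8* did not pass with library size scaling (FDR 0.109). *Irf8* also did not pass without any of control replicates 2 and 3 and MWCNT replicate 1 (FDR 0.0738 to 0.0882). Splitting the list by these roles was done after the values were seen. With library size scaling, 3 members of the list fell as DEGs, and with limma on TPM 5.

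Mast cell proteases and receptors rose from low levels. Of 10 tested genes of mast cells and basophils, 8 rose and 2 fell, a division of the list of neutrophil, mast cell, and eosinophil genes made after the values were seen. Members with few counts in the control rats passed the filter through the MWCNT-treated rats. Where at least 10 counts were required in every rat, 5 members were tested, of which 3 rose and 2 fell. The median was then 0.31 instead of 3.97, with 2 DEGs in each direction. *Mrgprx2* and some other genes named below are not among these 10. *Tpsab1* and *Tpsb2* are the tryptases stored in mast cell granules, and they lie near each other at chr10:14701253-14703668 and chr10:14722756-14724600 in Rnor_6.0. *Tpsb2* was at 1.89, 1.17 and 0.967 TPM in the control rats and 82.6, 79.0 and 91.3 TPM in the MWCNT-treated rats, with no overlap and little spread among the MWCNT-treated rats (log2 fold change 6.16, SE 0.18, FDR 1.56e-07). *Tpsab1* had 6, 4 and 2 counts in the control rats and 898, 857 and 1104 counts in the MWCNT-treated rats (log2 fold change 7.86, SE 0.24, FDR 1.56e-07). *Cpa3*, the carboxypeptidase of mast cell granules, was at 1.53, 1.08 and 2.38 TPM in the control rats and 58.3, 46.1 and 63.7 TPM in the MWCNT-treated rats (log2 fold change 5.30, SE 0.23, FDR 5.04e-07). *Cma1*, a chymase, was at 2.35, 1.22 and 1.04 TPM in the control rats and 34.3, 30.3 and 32.4 TPM in the MWCNT-treated rats (log2 fold change 4.58, SE 0.26, FDR 2.24e-06), and its neighbor *Mcpt1l1* at chr15:34609776-34612432 was at 3.95, 2.32 and 4.26 TPM in the control rats and 194, 177 and 174 TPM in the MWCNT-treated rats (log2 fold change 5.91, SE 0.16, FDR 1.49e-07). These proteases are members of families with similar sequences, and the division of reads between copies is uncertain. The chains of the high-affinity IgE receptor rose too. *Ms4a2*, its beta chain, was at 1.17, 0.645 and 0.656 TPM in the control rats and 13.7, 11.5 and 13.3 TPM in the MWCNT-treated rats (log2 fold change 4.16, SE 0.24, FDR 2.24e-06), and *Fcer1a*, its alpha chain, had a log2 fold change of 3.78 (FDR 3.41e-05). *Mrgprx2*, a receptor through which peptides and drugs degranulate mast cells, was at 0.125, 0.122 and 0.101 TPM in the control rats and 11.5, 11.9 and 9.66 TPM in the MWCNT-treated rats (log2 fold change 6.74, SE 0.21, FDR 1.56e-07). *Tph1*, which makes serotonin in rodent mast cells among other cells, was at 0.105, 0.136 and 0.188 TPM in the control rats and 5.81, 5.95 and 6.80 TPM in the MWCNT-treated rats (log2 fold change 5.62, SE 0.24, FDR 4.63e-07). *Hdc*, which makes histamine, had a log2 fold change of 0.31 (SE 0.11, FDR 0.0413), which did not pass in 13 of the alternatives. *Kit*, the stem cell factor receptor, and *Gata2*, a transcription factor, are used by mast cells but also by lung endothelium, and both fell. *Kit* was at 96.2, 121 and 109 TPM in the control rats and 36.4, 40.6 and 36.5 TPM in the MWCNT-treated rats (log2 fold change -1.31, SE 0.08, FDR 4.12e-06), and *Gata2* had a log2 fold change of -1.49 (FDR 2.64e-05).

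Of 13 tested neutrophil genes, 7 rose, 6 of them as DEGs, and 6 did not pass. *S100a8*, calgranulin A, was at 98.0, 123 and 153 TPM in the control rats and 306, 208 and 401 TPM in the MWCNT-treated rats (log2 fold change 1.51, SE 0.23, FDR 0.000569), and *Cd177*, *S100a9*, *Trem1*, and *Il1r2* rose by 3.01, 2.21, 1.67, and 1.88. The granule genes *Mpo* and *Elane*, which are transcribed in immature cells, did not pass the filter. *Ccr3*, the eotaxin receptor of eosinophils, was at 4.04, 3.18 and 3.51 TPM in the control rats and 0.971, 0.613 and 0.663 TPM in the MWCNT-treated rats, the opposite direction to the mast cell genes (log2 fold change -2.04, SE 0.27, FDR 0.000279). The eosinophil granule genes *Epx*, *Prg2*, and *Prg3* did not pass the filter. Where at least 10 counts were required in every rat, 8 members of the list were DEGs that rose instead of 13.

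More T and NK cell genes fell than rose. Of 32 tested members, 16 fell, 3 rose, and 13 did not pass, and 14 of those that fell and 2 of those that rose were DEGs. *Cd3e*, a chain of the T cell receptor complex, was at 28.2, 23.9 and 32.9 TPM in the control rats and 14.2, 8.07 and 5.6 TPM in the MWCNT-treated rats, with every MWCNT-treated rat below every control rat (log2 fold change -1.39, SE 0.30, FDR 0.00406). *Cd3g*, *Cd3d*, *Cd5*, *Zap70*, and *Cd8a* fell with log2 fold changes of -1.63, -1.36, -1.50, -1.42, and -1.36. The killing proteins *Gzma*, *Gzmk*, and *Prf1* had values of -1.61, -1.47, and -1.46. *Nkg7*, a granule protein of killer cells, was at 116, 163 and 71.1 TPM in the control rats and 29.3, 20.8 and 92.6 TPM in the MWCNT-treated rats, so MWCNT replicate 3 lay within the control range and the gene did not pass (log2 fold change -1.09, SE 0.49, FDR 0.0943). Without that rat it had a log2 fold change of -1.99 (FDR 0.00191). *Cd4*, which rat macrophages carry as well as helper T cells, was at 58.9, 63.1 and 67.3 TPM in the control rats and 201, 206 and 163 TPM in the MWCNT-treated rats (log2 fold change 1.81, SE 0.10, FDR 2.24e-06). *Ctla4*, an inhibitory receptor of regulatory T cells, was at 1.15, 0.776 and 0.855 TPM in the control rats and 1.75, 2.30 and 1.40 TPM in the MWCNT-treated rats (log2 fold change 1.17, SE 0.36, FDR 0.0226). It did not pass with DESeq2 (FDR 0.0504) or without any of control replicates 2 and 3 and MWCNT replicates 1 and 2 (FDR 0.0591 to 0.0932). *Foxp3*, the transcription factor of regulatory T cells, was at 1.24, 1.17 and 1.84 TPM in the control rats and 2.47, 2.38 and 1.54 TPM in the MWCNT-treated rats, and its log2 fold change of 0.81 (SE 0.29, FDR 0.041) did not pass with library size scaling (FDR 0.0876). *Foxp3* also did not pass without any of control replicates 1 and 2 and MWCNT replicates 1 and 2 (FDR 0.108 to 0.143).

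B cell genes and genes of antibody secretion did not move together. Of 21 tested members, 6 rose, 4 fell, and 11 did not pass, so the share that passed was near the 49.2% of all tested genes. DEGs were 4 that rose and 3 that fell, shares above the background of 8.17% and 8.22%. Of 8 genes of the B cell surface, 4 fell and 1 rose. *Cd79b*, a signal chain of the B cell receptor, was at 10.3, 11.4 and 11.1 TPM in the control rats and 4.50, 1.84 and 2.58 TPM in the MWCNT-treated rats (log2 fold change -1.67, SE 0.32, FDR 0.00216). *Ms4a1*, CD20, was at 2.09, 2.70 and 2.85 TPM in the control rats and 3.29, 0.450 and 0.487 TPM in the MWCNT-treated rats. MWCNT replicate 1 stood above the other 2 treated rats, the gene did not pass (log2 fold change -0.64, SE 0.69, FDR 0.465), and without that rat the value was -2.21 (FDR 0.00707). *Jchain*, the joining chain of secreted IgA and IgM, was at 228, 153 and 520.0 TPM in the control rats and 1634, 419 and 496 TPM in the MWCNT-treated rats (log2 fold change 1.74, SE 0.58, FDR 0.0321). Its rise also rested on MWCNT replicate 1, without which the log2 fold change was 0.81 (FDR 0.145). *Jchain* also did not pass with DESeq2 (FDR 0.0613) or limma on log2(TPM + 0.1) or log2(TPM + 1) (FDR 0.0652 and 0.064). Nor did it pass without control replicate 1 (FDR 0.109) or control replicate 2 (FDR 0.104), and its TPM ranges overlapped between the groups. *Fcer2*, the low-affinity IgE receptor of B cells and macrophages, rose by 2.24 (FDR 0.00019).

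More genes of oxidant, metal, and iron handling rose than fell. Of 40 tested members, 25 rose, 5 fell, and 10 did not pass, with 16 DEGs higher and 1 lower and a median of 0.72. *Cybb*, the catalytic subunit of the phagocyte NADPH oxidase, was at 82.2, 91.4 and 119 TPM in the control rats and 581, 584 and 483 TPM in the MWCNT-treated rats (log2 fold change 2.72, SE 0.14, FDR 1.4e-06), and its partners *Ncf1* and *Cyba* rose by 1.87 and 1.6. *Lpo*, lactoperoxidase, had 3, 9 and 37 counts in the control rats and 4930, 5610 and 4427 counts in the MWCNT-treated rats. *Duox1* and its maturation factor *Duoxa1*, which supply peroxide at the epithelial surface, rose by 2.79 and 1.79. *Hmox1*, heme oxygenase, was at 60.9, 53 and 56.2 TPM in the control rats and 209, 179 and 173 TPM in the MWCNT-treated rats (log2 fold change 1.94, SE 0.11, FDR 2.24e-06). *Mt3* rose from 0, 1 and 2 counts to 456, 681 and 294 counts, whereas *Mt1* and *Mt2A*, the common metallothioneins, rose by 0.96 and 1.30. *Mt2A* was at 78.9, 59.1 and 62.8 TPM in the control rats and 141, 168 and 117 TPM in the MWCNT-treated rats, which is the same order of TPM as *Mt3* in the MWCNT-treated rats, at 139.6, 183 and 85.4. *Slc7a11*, the cystine transporter that feeds glutathione synthesis, was at 0.244, 0.224 and 0.724 TPM in the control rats and 5.03, 4.63 and 3.41 TPM in the MWCNT-treated rats (log2 fold change 3.69, SE 0.37, FDR 4.5e-05). Members that fell included *Prdx6* and *Gpx3*, which remove peroxides, at -0.80 and -0.37, *Nox4*, an NADPH oxidase of fibroblasts and endothelium, at -0.58, and *Sod3*, the extracellular superoxide dismutase, at -1.09 (FDR 1.72e-05).

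Genes of the alveolar type 2 cell rose together, and genes of the type 1 cell fell together. Of 27 tested type 2 genes, 21 rose and 2 fell, and the sum over the list was 61799.9, 57948 and 67366 TPM in the control rats and 127507, 122074 and 131559 TPM in the MWCNT-treated rats. The list holds *Lyz2*, *Cd74*, *Fabp5*, *Ctsh*, and *Lamp3*, which macrophages and other immune cells also express. Among the surfactant proteins, *Sftpd* and *Sftpa1*, the collectins that bind microbes, had log2 fold changes of 1.90 (SE 0.15, FDR 1.04e-05) and 1.55 (SE 0.10, FDR 4.47e-06). *Sftpc* rose 2.0-fold, at the limit of the DEG criterion, and had a log2 fold change of 0.83 with library size scaling. *Sftpb* had a value of 0.33 (FDR 0.0125), which did not pass with library size scaling (FDR 0.138) or without control replicate 2 (FDR 0.0541). *Rasgrf1*, a Ras activator, and *Pla2g1b*, a secreted phospholipase, rose by 3.13 and 2.37, and *Muc1*, a membrane mucin, by 2.11. *Acoxl*, an acyl-CoA oxidase-like gene, and *Scd* were the 2 members that fell. *Acoxl* was at 20.7, 18.4 and 17.8 TPM in the control rats and 0.134, 0.822 and 1.24 TPM in the MWCNT-treated rats (log2 fold change -4.46, SE 0.37, FDR 1.71e-05). *Scd*, a desaturase that makes the unsaturated fatty acids of surfactant lipid, was at 170.4, 246 and 173 TPM in the control rats and 67.0, 74.5 and 85.5 TPM in the MWCNT-treated rats (log2 fold change -1.16, SE 0.14, FDR 0.000143), whereas *Fasn*, fatty acid synthase, rose by 1.20 (FDR 6.55e-05).

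Of 27 tested genes of type 1 cells and caveolae, 23 fell and 1 rose, with 12 DEGs, all lower. *Ager*, the receptor for advanced glycation end products on type 1 cells, was at 2311, 2139 and 1884 TPM in the control rats and 1172, 1095 and 1255 TPM in the MWCNT-treated rats (log2 fold change -0.63, SE 0.11, FDR 0.00122). *Rtkn2*, a marker of type 1 cells, was at 85.8, 95 and 95.2 TPM in the control rats and 20.1, 23.3 and 28.1 TPM in the MWCNT-treated rats (log2 fold change -1.73, SE 0.10, FDR 2.6e-06). *Cav1*, the coat protein of caveolae, which capillary endothelium shares with type 1 cells, was at 892, 1016 and 1018 TPM in the control rats and 201, 250.4 and 288 TPM in the MWCNT-treated rats (log2 fold change -1.77, SE 0.12, FDR 4.55e-06). All 5 caveolin and cavin genes fell, with a median of -1.47. *Vegfa*, the endothelial growth factor made by the alveolar epithelium, was at 737, 978 and 737 TPM in the control rats and 217, 263 and 292 TPM in the MWCNT-treated rats (log2 fold change -1.45, SE 0.13, FDR 2.75e-05). *Aqp5*, *Hopx*, and *Pdpn*, further type 1 genes, had log2 fold changes of -0.97, -0.89, and -0.72, and *Cldn18*, a tight junction protein of the alveolus, was the member that rose, at 0.33 (FDR 0.00945), which did not pass with library size scaling (FDR 0.132).

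Genes of the conducting airway changed in both directions, in shares near the background of the FDR. The shares of DEGs were above the background of 8.17% higher and 8.22% lower. Of 21 tested members, 6 fell, 5 rose, and 10 did not pass, and 5 in each direction were DEGs. *Slc26a4*, pendrin, an anion exchanger of the airway surface, was at 1.39, 2.27 and 4.91 TPM in the control rats and 153, 119.5 and 147 TPM in the MWCNT-treated rats (log2 fold change 5.85, SE 0.30, FDR 1.37e-06). *Bpifa1*, a secreted antimicrobial protein of the upper airway, was at 0.896, 2.19 and 36.5 TPM in the control rats and 177, 211 and 181 TPM in the MWCNT-treated rats. Control replicate 3 was far above the other 2 control rats but well below the MWCNT-treated rats (log2 fold change 4.11, SE 0.77, FDR 0.00197). *Muc5b*, a gel-forming mucin, was at 0.708, 0.682 and 8.04 TPM in the control rats and 4.91, 13.9 and 3.26 TPM in the MWCNT-treated rats and did not pass (log2 fold change 1.48, SE 0.85, FDR 0.18). Without control replicate 3 its log2 fold change was 3.61 (FDR 0.00274), and the number of DEGs of the list that rose was 9. *Aldh3a1*, an aldehyde dehydrogenase of airway epithelium, was at 9.15, 7.97 and 5.94 TPM in the control rats and 0.939, 1.14 and 2.05 TPM in the MWCNT-treated rats (log2 fold change -2.27, SE 0.33, FDR 0.000435), and *Adh7* and *Cyp2f4* fell with values of -1.69 and -1.38.

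Genes of motile cilia fell nearly throughout. Of 27 tested members, 25 fell, 19 of them as DEGs, and the median was -1.10. The sum over the list was 605, 436 and 495 TPM in the control rats and 195, 269 and 197 TPM in the MWCNT-treated rats. *Dnah5*, a heavy chain of the outer dynein arm, was at 2.57, 2.16 and 3.50 TPM in the control rats and 0.923, 1.39 and 0.991 TPM in the MWCNT-treated rats (log2 fold change -1.10, SE 0.22, FDR 0.00267), and *Sntn*, *Dnah9*, and *Cfap126* had the largest falls, -1.62, -1.43, and -1.38. *Tekt2*, a tektin, was the member that rose, at 0.49 (FDR 0.0255), which did not pass with library size scaling (FDR 0.107). *Tekt2* also did not pass without any of control replicates 2 and 3 and MWCNT replicates 1 and 2 (FDR 0.0517 to 0.101).

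Genes of basal, transitional, and squamous epithelium rose in part. Of 27 tested members, 12 were DEGs that rose and 2 were DEGs that fell. *Krt14*, a keratin of basal cells, had 3, 2 and 0 counts in the control rats and 18, 55 and 83 counts in the MWCNT-treated rats (log2 fold change 4.84, SE 0.77, FDR 0.000786). *Krt17*, a keratin of activated basal cells, had 2, 4 and 4 and 17, 43 and 37 counts (log2 fold change 3.21, SE 0.48, FDR 0.000576). *Krt5* and *Tp63*, which define basal cells, did not pass the filter, and *Krt5* had 0, 34 and 10 counts in the MWCNT-treated rats. *Krt8*, a keratin of transitional alveolar cells, was at 211, 184 and 190.1 TPM in the control rats and 168, 216 and 172 TPM in the MWCNT-treated rats, with overlapping groups (log2 fold change 0.14, SE 0.11, FDR 0.321). *Cldn4*, a tight junction protein of the same transitional cells, was at 10.8, 7.10 and 10.7 TPM in the control rats and 38.4, 52.7 and 36.1 TPM in the MWCNT-treated rats (log2 fold change 2.37, SE 0.20, FDR 1.68e-05). The members that fell were *Lgals7*, a galectin of squamous epithelium, and *Sox2*, a transcription factor of the airway, at -1.94 (FDR 0.023) and -1.13 (FDR 0.00725). *Lgals7* did not pass without control replicate 2 (FDR 0.0812), MWCNT replicate 1 (FDR 0.0663), or MWCNT replicate 3 (FDR 0.0795), and *Sox2* was no DEG without control replicate 1 (log2 fold change -0.87) or MWCNT replicate 3 (-0.96). With limma on log2(TPM + 1), 6 members were DEGs that rose.

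Most genes of the endothelium fell. Of 47 tested members, 38 fell and 1 rose, and 29 of those that fell were DEGs. The sum over the list was 9959, 11502 and 9222 TPM in the control rats and 3120.3, 3592 and 4184 TPM in the MWCNT-treated rats. *Cdh5*, the junctional cadherin of all endothelium, was at 337, 411 and 349 TPM in the control rats and 131, 139 and 179.6 TPM in the MWCNT-treated rats (log2 fold change -1.07, SE 0.12, FDR 9.51e-05). *Plvap*, the diaphragm protein of capillary pores, was at 2332, 2762 and 1745 TPM in the control rats and 313, 408 and 541 TPM in the MWCNT-treated rats (log2 fold change -2.23, SE 0.21, FDR 3.67e-05). It is not among the 47 listed genes. *Dll4*, the Notch ligand of arterial and sprouting cells, was at 120.3, 139 and 96.7 TPM in the control rats and 16.9, 23.5 and 24 TPM in the MWCNT-treated rats (log2 fold change -2.26, SE 0.16, FDR 6.4e-06), and its partners in arterial identity, *Efnb2*, *Sox17*, and *Hey1*, had values of -1.91, -1.65, and -1.42. *Lyve1*, which lymphatic endothelium and some macrophages carry, was at 206, 242 and 207 TPM in the control rats and 39.7, 46.9 and 46.7 TPM in the MWCNT-treated rats (log2 fold change -2.08, SE 0.09, FDR 4.63e-07). *Apln* and *Aplnr*, the ligand and receptor of the apelin pathway, had values of -1.64 (SE 0.15, FDR 3.05e-05) and -1.66 (SE 0.11, FDR 3.76e-06). The growth factor receptors *Kdr*, *Flt1*, and *Tek* had values of -1.58, -1.05, and -1.81. *Esm1*, a proteoglycan of sprouting tip cells, was at 104, 98.2 and 92.6 TPM in the control rats and 5.53, 9.96 and 9.6 TPM in the MWCNT-treated rats (log2 fold change -3.34, SE 0.17, FDR 1.38e-06). *Ramp3*, a partner of the adrenomedullin receptor, was the member that rose, at 23.3, 13.7 and 13.7 TPM in the control rats and 35, 39.7 and 38.7 TPM in the MWCNT-treated rats (log2 fold change 1.37, SE 0.21, FDR 0.000679), while *Ramp2*, its relative, had a value of -1.58.

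Red blood cell transcripts moved in the same direction as the endothelial genes. All 7 tested red cell markers were DEGs that fell, and the sum over the list was 43239, 36538 and 29103 TPM in the control rats and 4855, 8593 and 10655 TPM in the MWCNT-treated rats. *Alas2*, the heme synthesis enzyme of red cell precursors, had a log2 fold change of -2.03 (FDR 0.000246). The rats were bled from the abdominal aorta at necropsy, and how much blood remained in each piece was not recorded in the labels, so the part of retained blood in the values of the endothelial and immune genes was not tested.

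**Figure D4:**
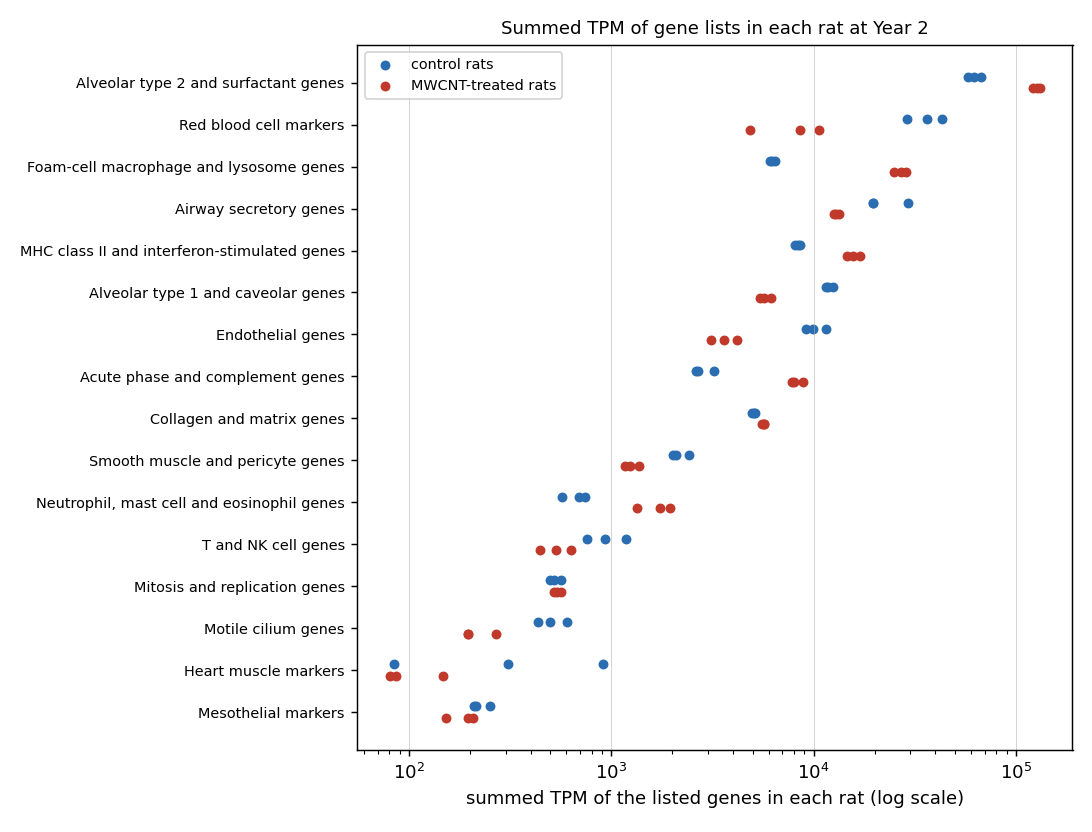
Sum of the TPM values of the listed genes in each rat (x axis, log scale) for 16 gene lists, with control rats in blue and MWCNT-treated rats in red. The groups overlapped for heart muscle and for mitosis and replication genes and did not for red blood cell markers, where the lowest control rat was at 29103 TPM and the highest MWCNT-treated rat at 10655 TPM.

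Smooth muscle genes fell, mostly by less than 2-fold. Of 24 tested members, 17 fell and 2 rose, with 6 DEGs lower and 1 higher. *Acta2*, smooth muscle actin, which scar-forming myofibroblasts also use, was at 444, 336 and 368 TPM in the control rats and 189, 234 and 201 TPM in the MWCNT-treated rats (log2 fold change -0.67, SE 0.13, FDR 0.00217). *Myh11*, smooth muscle myosin, was at 119.6, 86.2 and 96.1 TPM in the control rats and 39.2, 45.3 and 40.1 TPM in the MWCNT-treated rats (log2 fold change -1.07, SE 0.13, FDR 0.000191), and *Cnn1*, calponin, had a value of -1.31 (FDR 0.00253). Without control replicate 1, *Myh11* and *Cnn1* had values of -0.89 and -0.99, and the number of DEGs that fell was 3. *Actn2*, an actinin of striated muscle kept on this list, was at 2.01, 7.45 and 17.9 TPM in the control rats and 1.23, 3.17 and 1.37 TPM in the MWCNT-treated rats (log2 fold change -2.0, SE 0.66, FDR 0.0325), and its control values were in the same order as the sums of the heart markers. Its TPM ranges overlapped, and it did not pass with DESeq2 (FDR 0.0504) or with limma on TPM (FDR 0.0578 and 0.0601). *Actn2* also did not pass without any of control replicates 2 and 3 and MWCNT replicates 1 and 3 (FDR 0.0551 to 0.144). The whole heart list had 11 tested members, of which *Actc1* was the single DEG, at -1.99 (FDR 0.00924). Without control replicate 1, which had the fewest heart transcripts of the control rats, 12 of the 13 members then tested were DEGs that fell. The part of heart tissue in the value of *Actn2* was not tested.

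Fibroblast genes fell more often than they rose. Of 34 tested members, 17 fell and 7 rose, 5 and 3 of them as DEGs. The share that rose was below the 25.2% of all tested genes, and the share of DEGs that rose was near the background of 8.17%. The share that fell was above the background of 24%. *Tcf21*, the transcription factor of lipid-storing alveolar fibroblasts, was at 254, 268 and 273 TPM in the control rats and 139.7, 138 and 139 TPM in the MWCNT-treated rats (log2 fold change -0.71, SE 0.06, FDR 1.73e-05). *Foxf1*, a mesenchymal and endothelial transcription factor, was at 413, 463 and 399 TPM in the control rats and 71.7, 109.9 and 112 TPM in the MWCNT-treated rats (log2 fold change -1.91, SE 0.15, FDR 1.09e-05). *Fmo2*, the flavin monooxygenase of the lung, was at 402, 352 and 292 TPM in the control rats and 47.2, 42.8 and 61.3 TPM in the MWCNT-treated rats (log2 fold change -2.58, SE 0.17, FDR 4.11e-06). *Hhip*, which binds hedgehog ligands, rose from 16.7, 18.2 and 22.6 TPM to 43.4, 44.4 and 44.5 TPM (log2 fold change 1.42, SE 0.10, FDR 5.87e-06). With library size scaling 9 members were DEGs that fell instead of 5, and 1 rose instead of 3. Without control replicate 3, in which the sum over the list was highest, 6 rose. Mesothelial markers, which the pleural surface of the piece could add, had 10 tested members, of which 5 fell and *Msln*, mesothelin, rose by 0.71 (FDR 0.000812). *Upk3b*, a further mesothelial marker, was at 25.8, 28.9 and 29.6 TPM in the control rats and 5.11, 17.3 and 15.2 TPM in the MWCNT-treated rats (log2 fold change -0.95, SE 0.33, FDR 0.0392), and it did not pass without any of the control rats (FDR 0.0772 to 0.0892).

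Collagen and matrix genes rose modestly. Of 42 tested members, 23 rose and 7 fell, but 7 and 3 were DEGs, near the background in the lower direction. *Col1a1*, the main fibrillar collagen chain, was at 105, 108 and 122 TPM in the control rats and 247, 208 and 214 TPM in the MWCNT-treated rats (log2 fold change 1.22, SE 0.10, FDR 1.51e-05). *Col3a1*, the collagen of reticular fibers, was at 256, 282 and 332 TPM in the control rats and 498, 462 and 397 TPM in the MWCNT-treated rats, below the limit for a DEG (log2 fold change 0.86, SE 0.12, FDR 0.000304). *Thbs2*, thrombospondin 2, was at 2.29, 1.33 and 2.59 TPM in the control rats and 32.1, 24.9 and 29.8 TPM in the MWCNT-treated rats (log2 fold change 4.03, SE 0.21, FDR 1.37e-06), and *Col16a1*, *Vcan*, and *Fn1* rose by 2.04, 1.89, and 1.49. *Dcn*, decorin, a proteoglycan that organizes fibrils, was at 193, 146 and 267 TPM in the control rats and 77.6, 86.3 and 45.5 TPM in the MWCNT-treated rats (log2 fold change -1.31, SE 0.26, FDR 0.00272). The fibroblast gene *Postn*, periostin, had a log2 fold change of -0.39 (FDR 0.0021).

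Of 29 tested matrix proteases and their inhibitors, 18 rose, 4 fell, and 7 did not pass, with a median of 0.94. Of those that rose, 13 were DEGs. *Mmp7*, matrilysin, had 1, 0 and 0 counts in the control rats and 151, 149 and 115 counts in the MWCNT-treated rats. The plasminogen activator *Plau* and its receptor *Plaur* rose by 1.86 and 2.03. *Timp1*, an inhibitor of metalloproteases, was at 68.6, 63.0 and 61.5 TPM in the control rats and 152, 141 and 134 TPM in the MWCNT-treated rats (log2 fold change 1.36, SE 0.10, FDR 7.52e-06), whereas *Timp3* had a value of -0.29 (FDR 0.0219), which did not pass without any of 3 rats (FDR 0.0573 to 0.0778). *Mmp9* and *Mmp14*, a gelatinase and a membrane collagenase, rose by 2.35 and 2.04. *Adamts5*, an aggrecanase, was at 5.12, 4.01 and 6.08 TPM in the control rats and 1.23, 2.2 and 1.13 TPM in the MWCNT-treated rats (log2 fold change -1.51, SE 0.29, FDR 0.0021), whereas *Adamts4* rose by 2.28 (FDR 3.27e-05).

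Genes of mitosis and DNA replication rose, by small amounts at low levels. Of 35 tested members, 27 rose and 2 fell, and 15 of those that rose were DEGs. *Mki67*, a nuclear protein of cycling cells, was at 4.15, 6.00 and 3.73 TPM in the control rats and 7.01, 7.74 and 9.54 TPM in the MWCNT-treated rats (log2 fold change 1.02, SE 0.17, FDR 0.00106). *Top2a*, the topoisomerase of dividing cells, was at 4.59, 6.52 and 6.02 TPM in the control rats and 10.3, 11 and 11.6 TPM in the MWCNT-treated rats (log2 fold change 1.16, SE 0.11, FDR 4.5e-05), and *Ccnb1*, cyclin B1, was at 2.37, 2.81 and 4.01 TPM in the control rats and 8.98, 6.43 and 8.66 TPM in the MWCNT-treated rats (log2 fold change 1.61, SE 0.25, FDR 0.000701). *Cdk1*, the kinase that cyclin B1 activates, was at 7.99, 10.3 and 7.16 TPM in the control rats and 15.9, 14.2 and 16.8 TPM in the MWCNT-treated rats (log2 fold change 1.10, SE 0.17, FDR 0.000644). *Anln*, a ring protein of dividing cells, had the largest rise, 1.78 (SE 0.35, FDR 0.00273). Of the 6 subunits of the replicative helicase, 5 rose. *Aurkb* and *Ccnd1* fell with values of -0.66 (SE 0.15, FDR 0.0066) and -0.44 (SE 0.11, FDR 0.00727), and the level of *Aurkb*, 61.8, 47.4 and 68.6 TPM in the control rats, was above that of *Cdk1*. The number of DEGs that rose changed with the scaling. It was 8 with library size alone, 5 with limma on log2(TPM + 0.1), and 2 with limma on log2(TPM + 1). In these settings *Mki67* had values of 0.85, 0.81, and 0.70.

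Promoters of mitotic genes are known for CCAAT boxes and for the cell cycle element TTTGAA, and these were searched on both strands in the 250 bases before the start of each gene in RefSeq (GRCr8). A promoter was found for 27 of the 35 tested members. CCAAT was present in 19 of them, 70.4%, and in 34.3% of the 27457 promoters in the table. Those 27457 promoters, the background for each motif here, include genes that were not tested in these lungs. Promoters of the tested genes alone were not used as a background. TTTGAA was present in 9, 33.3%, and in 16% of all promoters. Of the 27, 7 held both, 25.9%, against 5.76% of all promoters. The promoters of *Cdk1*, *Mki67*, and *Ccnb1*, 3 of the members that rose, are shown from 200 bases before the start up to the start, on the strand of the gene, at chr20:19265093-19265292 (plus strand), chr1:199952594-199952793 (minus strand), and chr2:33655226-33655425 (minus strand). Capitals mark the CCAAT motif, which reads ATTGG when it lies on the other strand, and the cell cycle element, which then reads TTCAAA. Capitals run together where motifs overlap.
Cdk1: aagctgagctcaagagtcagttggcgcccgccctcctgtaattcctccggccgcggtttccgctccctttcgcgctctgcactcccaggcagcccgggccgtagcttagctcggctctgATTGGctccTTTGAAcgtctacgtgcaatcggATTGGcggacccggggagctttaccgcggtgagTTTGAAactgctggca
Mki67: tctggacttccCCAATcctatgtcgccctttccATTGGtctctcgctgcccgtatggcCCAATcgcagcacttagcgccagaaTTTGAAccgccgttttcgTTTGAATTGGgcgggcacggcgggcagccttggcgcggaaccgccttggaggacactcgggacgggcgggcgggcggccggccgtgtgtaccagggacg
Ccnb1: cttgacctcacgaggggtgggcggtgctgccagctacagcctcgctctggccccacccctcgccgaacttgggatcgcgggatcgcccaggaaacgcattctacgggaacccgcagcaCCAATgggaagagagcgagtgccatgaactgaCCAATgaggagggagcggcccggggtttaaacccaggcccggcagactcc
In this window *Cdk1* held 2 CCAAT motifs and 2 TTTGAA motifs, *Mki67* held 4 and 2, and *Ccnb1* held 2 and 0. These matches describe the sequences and were not measured for binding. The antioxidant motif TGACNNNGC was present in the promoters of 10 of 30 tested oxidant and metal genes for which a promoter was found, 33.3%, and in 10.2% of all promoters.

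Genes of the p53 response and senescence rose more often than they fell. Of 29 tested members, 14 rose and 6 fell, and 5 were DEGs, all higher. The share that fell was below the 24% of all tested genes, and the share that rose was above the background of 25.2%. With library size scaling, 9 rose and 8 fell. *Cdkn1a*, the p21 inhibitor of the cell cycle, was at 85.8, 70.4 and 87.8 TPM in the control rats and 155, 172 and 147 TPM in the MWCNT-treated rats (log2 fold change 1.17, SE 0.11, FDR 2.75e-05). *Cdkn2a*, which encodes p16 and p19ARF, was at 3.86, 2.90 and 2.24 TPM in the control rats and 2.63, 4.12 and 10.6 TPM in the MWCNT-treated rats, with MWCNT replicate 3 apart from the rest, and it did not pass (log2 fold change 1.14, SE 0.51, FDR 0.0913). *Eda2r*, a p53 target of the TNF receptor family, had 2, 8 and 9 counts in the control rats and 38, 20 and 32 counts in the MWCNT-treated rats (log2 fold change 2.24, SE 0.53, FDR 0.00666). With limma on log2(TPM + 0.1) or log2(TPM + 1), 1 and 0 members were DEGs.

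The ERBB family of receptors and its ligands control epithelial growth and repair. Of 13 tested members, 7 rose and 4 fell, with 3 DEGs in each direction. *Egfr* was at 4.05, 4.92 and 4.51 TPM in the control rats and 5.08, 4.91 and 5.68 TPM in the MWCNT-treated rats (log2 fold change 0.43, SE 0.13, FDR 0.0216), *Erbb2* at 20.6, 19.4 and 22.7 TPM in the control rats and 17.6, 21.1 and 21 TPM in the MWCNT-treated rats (log2 fold change 0.15, SE 0.09, FDR 0.21), and *Erbb3* at 29.3, 31.1 and 35.7 TPM in the control rats and 46.5, 44.1 and 43.9 TPM in the MWCNT-treated rats (log2 fold change 0.70, SE 0.08, FDR 9.53e-05). The ranges of *Egfr* and *Erbb2* overlapped between the groups and those of *Erbb3* did not. *Egfr* did not pass with library size scaling (FDR 0.122) or in the model of all rats (FDR 0.121). It also did not pass without any of control replicate 1 and MWCNT replicates 1 and 3 (FDR 0.0523 to 0.067). *Erbb4* was at less than 1 TPM in every rat and fell, from 23, 22 and 17 counts to 2, 2 and 4 counts (log2 fold change -2.90, SE 0.46, FDR 0.000814). Of the ligands, *Areg*, amphiregulin, was at 1.79, 1.40 and 3.72 TPM in the control rats and 18.7, 29.4 and 11.2 TPM in the MWCNT-treated rats (log2 fold change 3.33, SE 0.43, FDR 0.000234), and *Ereg*, epiregulin, was at 1.49, 0.633 and 2.58 TPM in the control rats and 9.83, 11.9 and 8.69 TPM in the MWCNT-treated rats (log2 fold change 2.92, SE 0.37, FDR 0.000198). *Areg* at chr14:18521930-18531179 and *Ereg* at chr14:18576355-18591394 are neighbors in Rnor_6.0. *Epgn*, at chr14:18626644-18634309, is in the same cluster and had 0 counts in all 6 rats, and *Btc*, at chr14:18231860-18272484, did not pass the filter, with 2, 3 and 4 and 10, 28 and 9 counts. *Nrg1*, a neuregulin, was at 2.64, 2.21 and 2.02 TPM in the control rats and 5.09, 3.90 and 4.06 TPM in the MWCNT-treated rats (log2 fold change 1.14, SE 0.18, FDR 0.000886). *Egf* fell from 1.69, 1.53 and 1.72 TPM to 0.446, 0.861 and 0.282 TPM (log2 fold change -1.41, SE 0.38, FDR 0.0139), and *Nrg4* from 26, 35 and 15 counts to 0, 7 and 8 counts (log2 fold change -2.32, SE 0.68, FDR 0.0186). *Tgfa*, *Nrg2*, and *Hbegf* had log2 fold changes of 0.58, 0.57, and -0.47. The fall of *Nrg4* did not pass without control replicate 1 (FDR 0.0547) or control replicate 2 (FDR 0.0734), and that of *Hbegf* without any of 4 rats. Where at least 10 counts were required in every rat, 1 member was a DEG that fell.

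Ephrins, semaphorins, slits, and netrins guide axons and vessels. Of 51 tested guidance genes, 24 fell and 12 rose, and 10 and 5 were DEGs. *Ephb4*, the venous ephrin receptor, was at 94.9, 112 and 90.5 TPM in the control rats and 37.3, 42.1 and 44.5 TPM in the MWCNT-treated rats (log2 fold change -1.05, SE 0.09, FDR 2.28e-05). *Unc5d*, a netrin receptor, had 21, 33 and 22 counts in the control rats and 1, 3 and 1 counts in the MWCNT-treated rats (log2 fold change -3.83, SE 0.51, FDR 0.000268). *Epha7* rose from 0.317, 0.576 and 1.51 TPM to 3.46, 3.37 and 2.92 TPM (log2 fold change 2.25, SE 0.44, FDR 0.00255). *Sema3g*, an endothelial semaphorin, had a value of -1.81 (FDR 0.000107), and *Plxnc1*, a semaphorin receptor of myeloid cells, rose by 1.66. With library size scaling, 2 guidance genes were DEGs that rose.

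Genes of Wnt, BMP, and TGF-beta signaling changed in both directions, with a median of -0.01. Of 59 tested members, 11 rose and 8 fell as DEGs, and with library size scaling these numbers were 8 and 14. *Wif1* and *Bmp4*, an inhibitor of Wnt and a growth factor, had log2 fold changes of -0.15 (SE 0.08, FDR 0.135) and 0.22 (SE 0.08, FDR 0.0374), and *Bmp4* did not pass with library size scaling (FDR 0.618), with which *Wif1* fell (-0.32, FDR 0.00947). *Bmp4* also did not pass without any of control replicates 2 and 3 and MWCNT replicates 2 and 3 (FDR 0.0776 to 0.116). *Tgfbr1*, the type 1 receptor of TGF-beta, was at 26, 27.5 and 39.1 TPM in the control rats and 136, 137 and 120.3 TPM in the MWCNT-treated rats (log2 fold change 2.31, SE 0.14, FDR 3.21e-06), and *Tgfbr3*, the coreceptor, had a value of -1.42 (FDR 2.42e-06). *Inhba*, an activin chain, was at 0.0532, 0.416 and 1.03 TPM in the control rats and 4.56, 5.43 and 4.13 TPM in the MWCNT-treated rats (log2 fold change 3.47, SE 0.54, FDR 0.000716). *Rspo3*, which enhances Wnt signaling, was at 0.398, 0.216 and 1.90 TPM in the control rats and 6.38, 6.97 and 8.19 TPM in the MWCNT-treated rats (log2 fold change 3.34, SE 0.53, FDR 0.000789). *Smad6*, an inhibitor of BMP signaling that endothelium expresses, was at 529, 550.0 and 308 TPM in the control rats and 53.3, 89.9 and 119 TPM in the MWCNT-treated rats (log2 fold change -2.2, SE 0.29, FDR 0.000261). *Wnt7b* rose by 1.72 while *Wnt7a*, *Wnt2b*, and *Wnt4* had values of -1.39, -2.44, and -1.03.

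More enzymes that handle foreign chemicals fell than rose. Of 35 tested members, 22 fell and 2 rose, and 15 of those that fell were DEGs. *Cyp4b1*, an abundant lung cytochrome P450, was at 659, 695 and 674 TPM in the control rats and 142, 176 and 172 TPM in the MWCNT-treated rats (log2 fold change -1.83, SE 0.09, FDR 8.56e-07). *Cyp2e1*, which oxidizes ethanol and small solvents, was at 38.4, 30.8 and 21.3 TPM in the control rats and 3.53, 3.86 and 3.40 TPM in the MWCNT-treated rats (log2 fold change -2.86, SE 0.23, FDR 1.4e-05). *Fmo1* fell with a value of -1.87, beside *Fmo2* above, and *Gsta4*, a glutathione transferase, with -1.71 (FDR 6.73e-06). *Cyp1a1*, the classical target of polycyclic aromatic ligands, had 2 counts in a control rat and 0 counts in the other 5 rats. The 2 that rose were *Gsto1*, a glutathione transferase, at 0.72 (FDR 0.000197), and *Ugt1a6*, a glucuronosyltransferase, at 5.70, 5.66 and 6.69 TPM in the control rats and 16.5, 16.9 and 14.8 TPM in the MWCNT-treated rats (log2 fold change 1.63, SE 0.09, FDR 2.15e-06).

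Some of the largest rises were in genes on none of these lists. *Sctr*, the secretin receptor, was at 0.692, 0.452 and 0.663 TPM in the control rats and 53.8, 64.0 and 49.8 TPM in the MWCNT-treated rats, a 106-fold rise with a narrow spread in both groups (log2 fold change 6.73, SE 0.18, FDR 1.49e-07). *Retnla*, resistin-like alpha, a product of alternatively activated macrophages and epithelium, was at 2.43, 2.11 and 21.8 TPM in the control rats and 698, 502 and 412 TPM in the MWCNT-treated rats. Control replicate 3 was far above the other 2 control rats, and all MWCNT-treated rats were far above it (log2 fold change 6.20, SE 0.52, FDR 1.77e-05). *Thy1*, a surface protein of fibroblasts and lymphocytes, was at 3.27, 2.60 and 2.87 TPM in the control rats and 15, 14.7 and 27.8 TPM in the MWCNT-treated rats (log2 fold change 2.92, SE 0.29, FDR 4.5e-05).

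Some of the largest falls were also in genes on none of the lists. *Slc7a10*, a transporter of small neutral amino acids, was at 54.5, 57.1 and 48.1 TPM in the control rats and 3.17, 3.01 and 5.88 TPM in the MWCNT-treated rats (log2 fold change -3.52, SE 0.21, FDR 2.8e-06). *Sstr1*, a somatostatin receptor, was at 7.93, 7.11 and 8.96 TPM in the control rats and 0.259, 0.824 and 0.768 TPM in the MWCNT-treated rats (log2 fold change -3.46, SE 0.30, FDR 2.13e-05). *Cox8b*, a subunit of cytochrome oxidase best known from heart muscle, was at 30.6, 30.8 and 42.2 TPM in the control rats and 5.55, 2.09 and 1.13 TPM in the MWCNT-treated rats (log2 fold change -3.34, SE 0.46, FDR 0.000321). *Bmp15* and *Bmp8b*, members of the BMP family, fell with values of -3.29 (SE 0.31, FDR 3.32e-05) and -3.17 (SE 0.54, FDR 0.00117). *Col6a4*, a collagen VI chain, had a value of -3.23 (SE 0.39, FDR 0.000147), and *Ephx4*, an epoxide hydrolase, -3.34 (SE 0.48, FDR 0.000442).

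To see where the response at Year 2 differed from the earlier response, the effect of MWCNT at Year 2 was compared with the mean of the effects at Years 0.5 and 1 in an edgeR model of all 18 rats, each year against its own controls. In this test 2.52% of 14843 genes passed the FDR and 0.478% also differed by more than 1 on the log2 scale, 40 more positive and 31 more negative at Year 2. The numbers changed with single rats. They were 74 and 53 without control replicate 3, 12 and 12 without MWCNT replicate 1, 19 and 9 without control replicate 1, 15 and 14 without control replicate 2, and 26 and 24 without MWCNT replicate 2. Genes are named below under the conditions of at least 1 TPM in the higher group, at least 10 counts in the lower group, and no overlap at Year 2, or because they were named above.

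Some mast cell genes had a more positive effect at Year 2. Of the 10 tested list members, 3 passed the FDR, *Ms4a2*, *Tpsb2*, and *Hdc*, all more positive. *Mcpt8l3* and *Mrgprx2*, given below, are not among these 10. *Ms4a2* had log2 fold changes of 1.01 at Year 0.5 and 1.68 at Year 1, and the difference of Year 2 from their mean was 2.83 (FDR 0.0203). *Tpsb2* had 2.24 at Year 0.5 and 3.42 at Year 1, with a difference of 3.34 (FDR 0.0256). *Mcpt8l3*, a protease gene of the mast cell and basophil family at chr15:34644464-34694244, had 0.50 at Year 0.5 and 0.86 at Year 1. Its levels at Year 2 were 1.08, 1.27 and 1.28 TPM in the control rats and 10.2, 8.81 and 14.3 TPM in the MWCNT-treated rats. Its difference, 2.74 (FDR 0.00306), passed in all 8 alternatives, whereas that of *Ms4a2* was lost without control replicate 2 or MWCNT replicate 1, and that of *Tpsb2* without either of these rats or control replicate 1. *Tpsab1*, *Cpa3*, and *Mrgprx2* had differences of 3.89 (FDR 0.152), 2.17 (FDR 0.184), and 1.67 (FDR 0.0422). *Thy1* had 0.63 at Year 0.5 and 1.17 at Year 1, with a difference of 2.03 (FDR 0.00451).

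**Figure D5:**
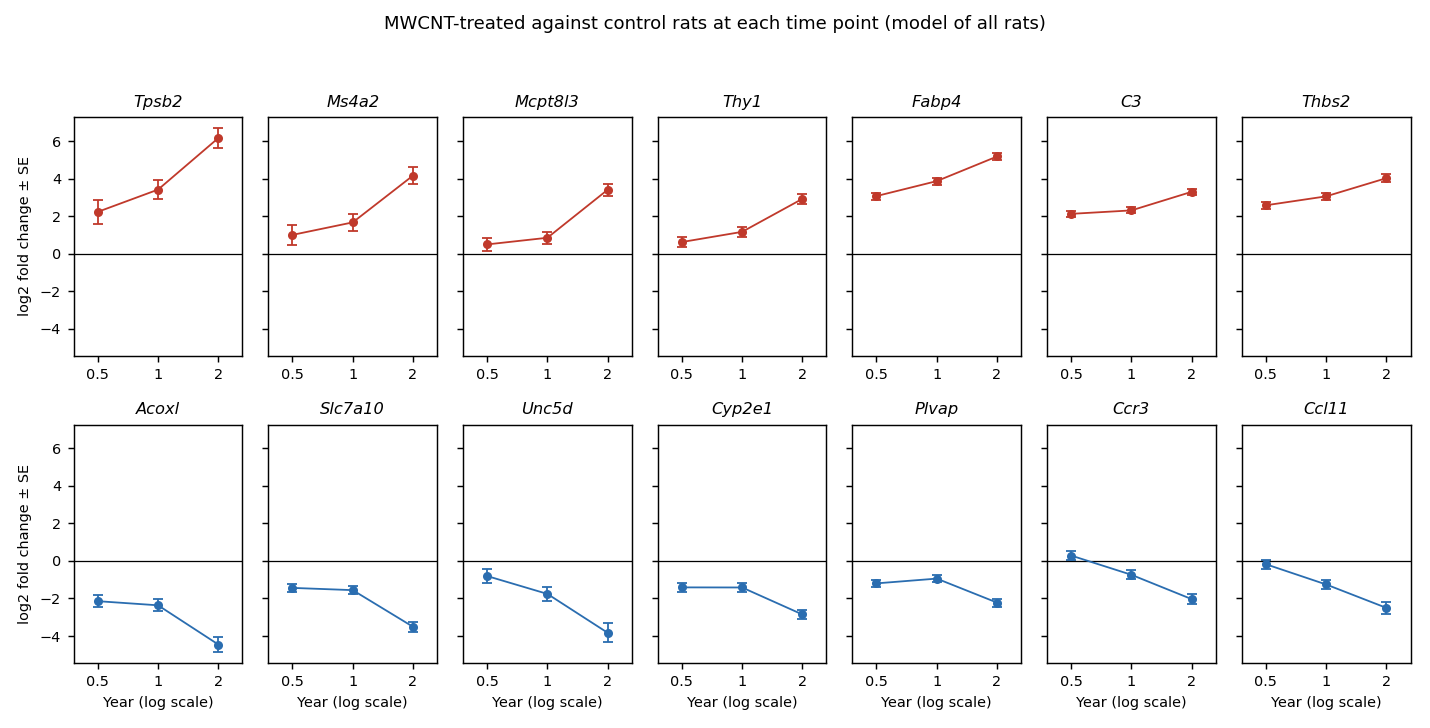
Log2 fold change of MWCNT-treated against control rats (y axis, with SE) at Years 0.5, 1, and 2 (x axis, log scale) from a model of all rats, for 7 genes that were more positive at Year 2 (red) and 7 that were more negative (blue). *Tpsb2* went from 2.24 to 6.17 and *Acoxl* from -2.14 to -4.46.

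Of the 33 macrophage and lysosome genes, 14 passed the FDR of this test, each with a more positive effect at Year 2, against 2.52% of all genes. *Fabp4* had 3.08 at Year 0.5 and 3.87 at Year 1, with a difference of 1.71 (FDR 0.00231) that passed in all 8 alternatives. *Gpnmb*, *Msr1*, *Lpl*, and *Trem2* had differences of 1.00 (FDR 0.0111), 0.92 (FDR 0.00697), 0.88 (FDR 0.00165), and 0.81 (FDR 0.00923). *Spp1* and *Mmp12*, the genes with the highest rises of the list, had differences of 0.05 (FDR 0.976) and 0.38 (FDR 0.418). Of the 31 acute phase and complement genes, 6 passed, all more positive. *C3* and *Serping1* had 1.08 (FDR 0.00861) and 1.10 (FDR 0.009). Of the matrix genes, *Thbs2* had 1.21 (FDR 0.0172), and *Col1a1* had 0.84 (FDR 0.0204), from 0.49 at Year 0.5 and 0.27 at Year 1.

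Among genes more negative at Year 2, *Slc7a10* had -1.44 at Year 0.5 and -1.56 at Year 1, with a difference of -2.01 (FDR 0.00337) that passed in all 8 alternatives. *Acoxl* had -2.14 at Year 0.5 and -2.36 at Year 1, with a difference of -2.2 (FDR 0.02). *Ccr3* and *Ccl11*, the eotaxin receptor and eotaxin, had differences of -1.81 (FDR 0.00658) and -1.79 (FDR 0.0233), and *Ccr3* had log2 fold changes of 0.29 at Year 0.5 and -0.74 at Year 1. Of the 27 type 1 and caveolar genes, 11 passed the FDR, all with a more negative effect at Year 2, the most by *Spock2* and *Akap5*, at -0.85 (FDR 0.0422) and -0.84 (FDR 0.0133). Of the 47 endothelial genes, 6 passed, 5 more negative and *Angpt1* more positive. Outside that list, *Plvap* had -1.15 (FDR 0.0233) and *Cyp2e1*, of the enzymes that handle foreign chemicals, -1.44 (FDR 0.0213). *Unc5d* and *Styk1*, a receptor kinase, had -2.55 (FDR 0.0297) and -2.31 (FDR 0.0422), and both did not pass without any of 4 rats. The type 2 surfactant genes *Sftpc* and *Sftpa1* had differences of 0.05 (FDR 0.861) and 0.12 (FDR 0.691), and *Mki67* and *Cdk1* of -0.15 (FDR 0.763) and -0.40 (FDR 0.409), so no difference from the earlier years was detected for these 4 genes. No gene of the mitosis, motile cilium, or ERBB lists passed the FDR of this test.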

How the data were processed

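RNA from the accessory lobe was sequenced, and the authors mapped the reads to the rat genome and counted them per gene in CLC Genomics Workbench (version 22.0.2). The build is Rnor_6.0 (rn6) per the submitters' processing notes. The deposited table of each rat holds whole read counts and the TPM values made from them for 22081 genes. How multiply mapped reads and strand were treated is not given in the sources used here. No table held a value column without a listed sample.

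The counts of the 6 rats of Year 2 were filtered with filterByExpr (minimum count 10, minimum total 15), scaled by TMM, and tested with the quasi-likelihood functions of edgeR 4.0.16 in R 4.3.3, without covariates. The criterion for a DEG, an FDR below 0.05 with an absolute log2 fold change above 1, is that of the study. TPM values are shown as deposited, and sums and means of TPM were calculated from them. Each library held at least 13297643 counts, and counting error is small except for genes with few counts, whose counts are printed. The difference of the Year 2 effect from the mean of the earlier effects was tested in an edgeR model of 18 rats. On simulated counts for these 14361 genes, 100 genes were changed 2-fold and 100 were changed 4-fold. Of these, 76% and 98% passed the FDR, and 21 unchanged genes did. Far fewer genes were changed than passed in the data, with equal numbers up and down. The simulation therefore does not give the error rate for the data.

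The gene lists, the subject of the comparison, and the rules were chosen with earlier results of these data known, and the subgroups of lists and 92 further example genes were chosen after the values were seen. The rule for named genes took the first 2 genes of each list, up to 3 DEGs with the largest rise and fall in each list, the 10 largest gains and losses in TPM, the 12 largest rises and falls and the 6 largest differences from earlier years among genes with at least 1 TPM in the higher group, at least 10 counts in the lower group, and no overlap, all ERBB genes, and members that failed the filter. Some genes of the lists were not analysed here because their symbol was not matched, and some named genes are not reported here. The rats are separate animals, and replicate numbers do not pair them. Alternatives were DESeq2 1.42.0, limma 3.58.1 on log2(TPM + 0.1) and log2(TPM + 1), other scaling, other filters, a model of all rats, a replicate block, and leaving out each rat. Promoters came from RefSeq (GRCr8), and the first entry per symbol was used.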

Additional observations from a re-analysis of the deposited data

Results flagged for a closer look

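The effect of MWCNT at Year 2 differed from the mean of the effects at Years 0.5 and 1, by the interaction test of the model of all rats, for 22 named genes. Each value is the difference in log2 fold change.

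More positive at Year 2 were genes of mast cells and basophils, *Tpsb2* (3.34), *Ms4a2* (2.83), *Mcpt8l3* (2.74), and *Mrgprx2* (1.67), and genes of macrophages, complement, and matrix, *Fabp4* (1.71), *C3* (1.08), *Serping1* (1.10), *Thbs2* (1.21), and *Mmp9* (1.57). *Thy1* (2.03), *Astn2* (1.91), which encodes a membrane protein of neurons, and the uncharacterized LOC103690016 (7.36) also differed. LOC103690016 had 0, 0 and 25 counts in the control rats and 147, 212 and 138 counts in the MWCNT-treated rats at Year 2, so its size rests on few counts, and its log2 fold change did not pass with DESeq2 (FDR 0.0937).

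More negative at Year 2 were *Acoxl* (-2.2), *Slc7a10* (-2.01), *Unc5d* (-2.55), *Styk1* (-2.31), *Ccr3* (-1.81), *Ccl11* (-1.79), *Ly49s6* (-1.93), a receptor gene of the killer cell family whose copies resemble each other, *Cyp2e1* (-1.44), *Gsta4* (-1.05), and *Plvap* (-1.15). *Fabp4*, *Mcpt8l3*, *Thy1*, *Serping1*, *Slc7a10*, and *Ccr3* passed in all 8 alternatives. *Mrgprx2* failed in 7, *Ccl11* and *Ly49s6* in 5, *Unc5d*, *Plvap*, *Styk1*, and LOC103690016 in 4, *Tpsb2*, *Cyp2e1*, and *Mmp9* in 3, and *C3*, *Acoxl*, *Thbs2*, *Ms4a2*, *Astn2*, and *Gsta4* in 2.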

How the results depend on the processing

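The number of DEGs that rose was 703 with limma on log2(TPM + 1), and 3616 genes rose and 3451 fell with the FDR alone. Under the other alternatives these numbers stayed within 1.5 times the values reported, from 880 to 1304 higher and from 1000 to 1667 lower, and leaving out 1 rat at a time gave 1077 to 1261 higher and 1044 to 1233 lower. With the replicate block, 1153 rose and 1138 fell. Same-numbered rats did not deviate together (correlations of -0.021, -0.014, and -0.137 across genes), so the numbers name the rats and pair nothing. For the difference from earlier years, 26 genes were more positive with library size scaling, 232 more positive and 142 more negative with the FDR alone, and leaving out 1 rat gave 12 to 74 more positive and 9 to 53 more negative. Over the named genes and alternatives, 4437 values kept their side of the threshold, 234 lost the call, and 14 gained it. No gene that passed as reported changed sign, and the sign of genes that did not pass was not compared. Of the list counts, 878 stayed within 1.5 times and 108 moved, most of them counts below 10. The share of DEGs that rose was 37.5% with library size scaling, 34.6% with limma at a pseudocount of 0.1, and 36.6% at a pseudocount of 1, against 49.9% as reported, and these 3 settings leave out the TMM factors. Without MWCNT replicate 1, 3 B and plasma cell genes were DEGs that rose instead of 4. Genes with fewer than about 10 counts in a group are limited by depth.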
